A study of Bos taurus with 6 samples.

Results

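The 10 genes described here are the transcriptional effectors of the Hippo pathway and genes they act on. They were YAP1, WWTR1 (the gene of the protein TAZ), TEAD1 and TEAD4 as effectors, and CTGF, CYR61, ANKRD1, AMOTL2, LATS2 and AJUBA as targets or feedback genes. They were chosen by gene name, the names CCN2 and CCN1 being accepted for CTGF and CYR61, and all 10 were among the 32183 genes listed in the gene tables. RNA was measured in 6 cultures of bovine rumen epithelial primary cells (REPC). In 3 cultures, the cells were exposed to 5 mM butyrate for 24 h, and 3 cultures served as controls. All cells came from 1 Holstein bull calf of 2 weeks of age, which had been fed milk replacer only, so the p-values below measure the spread between cultures of one animal's cells. Butyrate is a short-chain fatty acid formed by rumen fermentation, and it inhibits histone deacetylases.

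In the Hippo pathway, the kinases MST1 and MST2 (STK4 and STK3) activate the kinases LATS1 and LATS2, which phosphorylate YAP1 and TAZ and hold them in the cytoplasm. Unphosphorylated YAP1 and TAZ enter the nucleus and bind TEAD transcription factors, which carry the DNA contact. CTGF, CYR61 and ANKRD1 are the targets most often read as a measure of that activity, while LATS2 and the motin AMOTL2 are targets that restrain it. These steps act on proteins, and the values below are mRNA levels, not protein, phosphorylation or nuclear location.

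The level of a gene is given as FPKM, the number of fragments scaled to transcript length and to all mapped fragments, which can be compared between genes since it is divided by length. Summed FPKM was 678035 to 681912 in the control cultures and 619401 to 629037 in the butyrate cultures, with 16051 to 16193 and 17306 to 17510 genes above 0. Differences were tested with limma on log2(FPKM + 0.1) across the 15813 genes whose FPKM averaged 0.1 or more. A gene was called where the Benjamini-Hochberg (BH) adjusted p was under 0.05. A log2 fold change on this scale understates the change of genes with very low levels. Over all tested genes the median log2 fold change was 0.10, and it was 0.23 after rescaling to TPM, 0.07 after median-of-ratios scaling and -0.05 after quantile normalization.

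Marker genes also differed between the groups, as did 58.4% of all tested genes (32.5% called higher and 25.9% lower). Of 15 epithelial markers, 14 were tested, with 11 called higher and 1 lower (KRT5). The summed FPKM of all 15 was 2449 to 2557 in controls and 5146 to 5258 after butyrate. In controls, KRT8 averaged 1379.8 FPKM, KRT19 492, KRT5 401 and CDH1 49.8, while EPCAM averaged 0.540 and the epithelial transcription factor gene GRHL2 was listed at 0. After butyrate, CDH1 was at 48.9 without a call, EPCAM at 3.33 and GRHL2 at 0.115. Of 12 fibroblast markers, 10 were tested, with 9 called higher and 1 lower (PRRX1). The sum of all 12 was 4388 to 4546 against 6287 to 6641. Of 7 smooth muscle markers, 4 were called lower and 2 higher, and their sum was 6509 to 6840 against 2894 to 3506. All 6 proliferation markers were called lower, from a sum of 200.5 to 208 to a sum of 7.13 to 9.52. Of 7 endothelial and leukocyte markers, only 3 were tested, and all 3 were called higher. The sums of all 7 were 2.56 to 2.63 and 7.70 to 9.76, with CDH5 and PTPRC at 0 throughout. In bulk cultures, fewer cells of a type and less RNA per cell cannot be told apart. The part of these marker shifts in the results below was not tested.

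Of the 10 genes, 8 were called, where 58.4% of all tested genes were called. Higher after butyrate were 4 of them (WWTR1, LATS2, CTGF and ANKRD1), against 32.5% of all genes, and lower were 4 (YAP1, TEAD4, CYR61 and AJUBA), against 25.9%. TEAD1 and AMOTL2 were not called. The effectors and the targets each held genes of both directions, and the median log2 fold change of the 10 was -0.04. None passed the stricter threshold of a Bonferroni-adjusted p under 0.05 with a log2 fold change beyond 2, which 3.97% of all tested genes passed (2.46% higher and 1.51% lower). The butyrate values lay entirely above the control values for 5 of the 10 genes (36.1% of all tested genes) and entirely below them for 4 (28.9%), and the groups did not overlap for 65% of all genes in either direction. By Bonferroni adjustment alone, WWTR1, CTGF and AJUBA passed, beside 12.8% of all genes. An exact permutation test of 3 cultures against 3 cannot give a two-sided p below 0.1, so the tests are those of the fit across all genes.

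**Figure D1:**
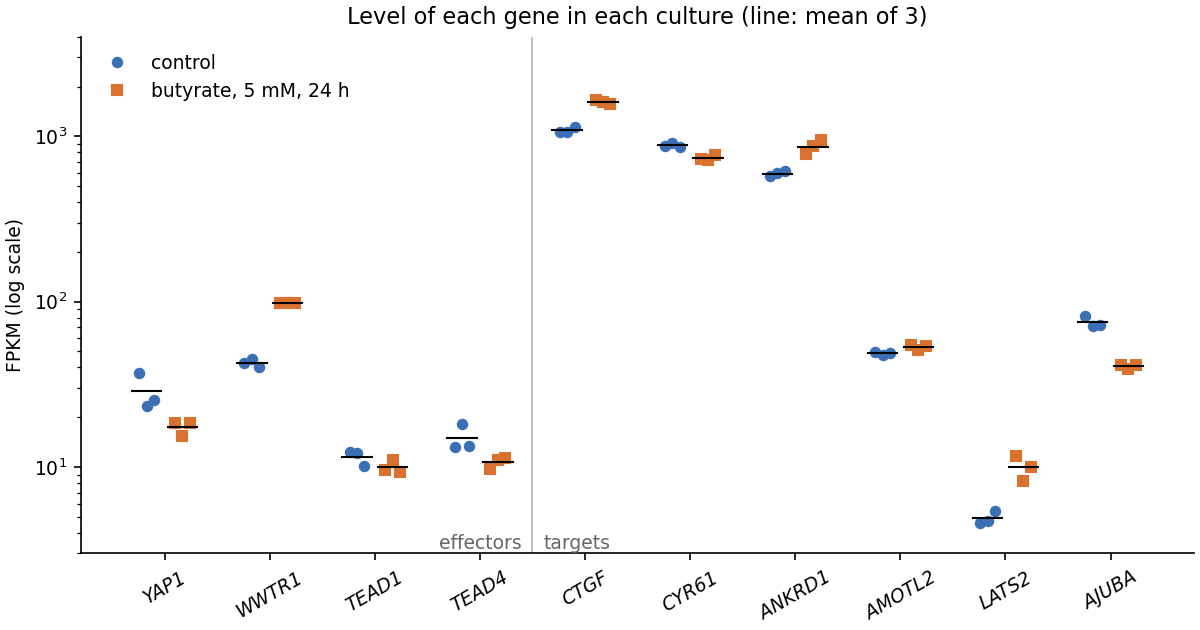
FPKM (log axis) of the 10 genes in the 3 control and the 3 butyrate cultures, each point being 1 culture and each bar the group mean. The butyrate points of WWTR1, CTGF, ANKRD1, AMOTL2 and LATS2 lie above all control points, those of YAP1, TEAD4, CYR61 and AJUBA lie below them (the log2 fold change of CYR61 goes to 0.00 after quantile normalization), and those of TEAD1 overlap.

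YAP1 and WWTR1 encode paralogous coactivators that share the TEAD partners, and their mRNAs moved in opposite directions. YAP1 (chromosome 15, 6747639 to 6884572, UMD3.1) had FPKM of 37.1, 23.5 and 25.4 in the control cultures and 18.4, 15.4 and 18.3 in the butyrate cultures. All butyrate values were below all control values, and control culture 1 stood above the other controls. The mean fell from 28.7 ± 7.35 to 17.4 ± 1.73 (SD, n = 3 each), a log2 fold change of -0.70 (SE 0.16, 95% interval -1.07 to -0.32, limma BH-adjusted p = 0.00592). Without control culture 1, the log2 fold change was -0.50 and the gene was still called.

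WWTR1 (chromosome 1, 119401619 to 119583580) had FPKM of 42.4, 44.8 and 40.1 in controls and 98.3, 98.4 and 97.8 after butyrate. The groups were far apart, and the butyrate cultures differed from each other by less than the controls did. Its mean rose from 42.4 ± 2.36 to 98.2 ± 0.359, or 2.31-fold (log2 fold change 1.21, SE 0.06, limma BH-adjusted p = 4.8e-07). This was the largest change among the 10, and 77.2% of all tested genes had a smaller absolute change.

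The balance of the paralogs shifted with these changes. YAP1 supplied 46.7%, 34.4% and 38.8% of the summed FPKM of both genes in the controls and 15.7%, 13.5% and 15.8% after butyrate. The ratio of WWTR1 to YAP1 was therefore 1.14, 1.91 and 1.58 in the controls and 5.35, 6.41 and 5.33 in the treated cultures, without overlap. Because WWTR1 rose by more FPKM than YAP1 lost, the sum of both was 71.1 ± 7.38 in controls and 115.5 ± 1.56 after butyrate.

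TEAD proteins bind DNA and have little activity of their own without a coactivator. TEAD4 (chromosome 5, 107264073 to 107325283) had FPKM of 13.1, 18.3 and 13.4 in controls and 9.70, 11.1 and 11.4 after butyrate. Every butyrate value was below every control value, and control culture 2 was the highest. Its mean fell from 15.0 ± 2.91 to 10.7 ± 0.896 (log2 fold change -0.46, SE 0.14, limma BH-adjusted p = 0.0191). The TEAD4 call did not hold after rescaling to TPM (-0.34, adjusted p = 0.06) or without the mean-variance trend, nor when butyrate culture 1 (-0.39) or butyrate culture 2 (-0.49) was left out.

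TEAD1 (chromosome 15, 40295876 to 40570007) had FPKM of 12.3, 12.1 and 10.1 in controls and 9.55, 11.1 and 9.34 after butyrate, and the groups overlapped. Its log2 fold change was -0.20, with a 95% interval of -0.46 to 0.06 and a limma BH-adjusted p of 0.163, so a modest decrease remains within the interval. Of the other TEAD genes, TEAD3 fell from 20.5 ± 1.42 to 11.1 ± 0.422 (-0.88, limma BH-adjusted p = 2.9e-05), and TEAD2 was at 13.5 and 12.3 without a call (-0.13). The summed FPKM of the 4 TEAD genes was 60.4 ± 4.01 in controls and 44.1 ± 1.53 after butyrate. TEAD3, the most abundant of them in controls, went from 34.0% ± 2.63 to 25.2% ± 1.64 of that sum. The share of TEAD2 was higher after butyrate (27.9% ± 0.81 against 22.3% ± 1.09), as was that of TEAD1 (22.6% ± 1.53 against 19.0% ± 0.929), while the shares of TEAD4 overlapped.

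**Figure D2:**
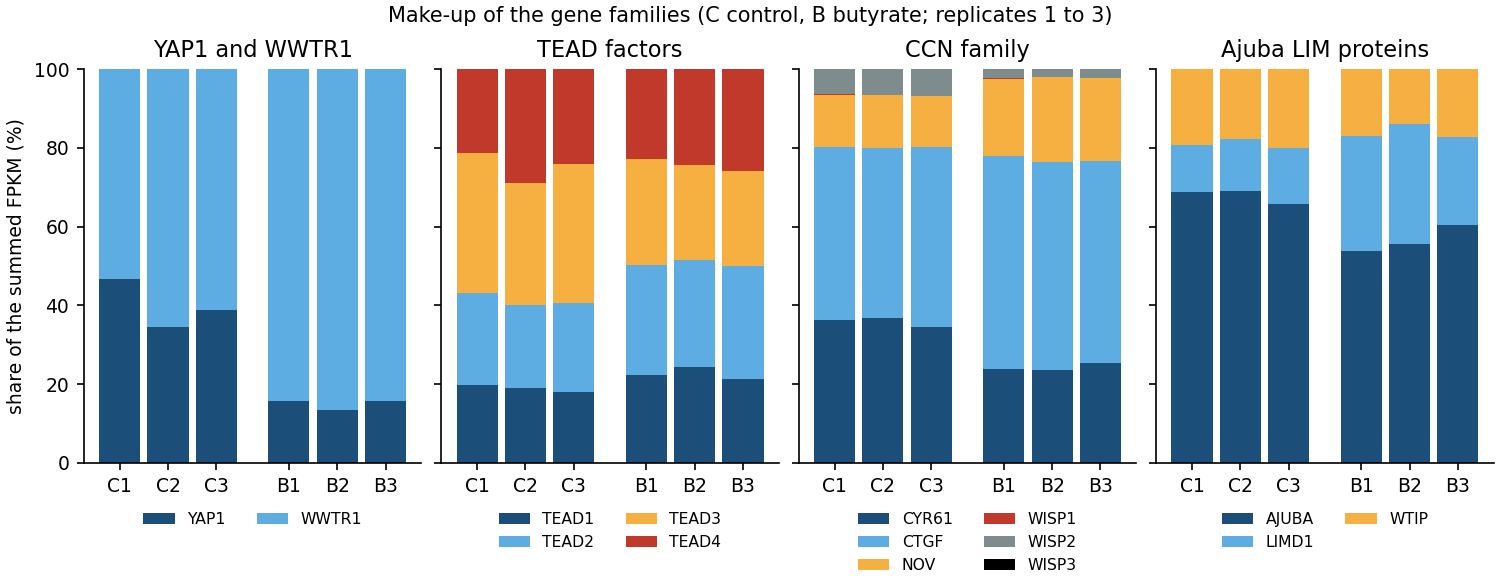
Stacked shares (percent of summed FPKM) of YAP1 and WWTR1, of the 4 TEAD genes, of the CCN family and of the Ajuba LIM proteins in each of the 6 cultures, C1 to C3 being controls and B1 to B3 butyrate cultures. YAP1 goes from a mean of 40.0% to 15.0% of its pair, TEAD3 from 34.0% to 25.2% of the TEAD genes, CYR61 from 36.0% to 24.2% of the CCN family and AJUBA from 67.9% to 56.6% of its family.

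The targets most often used as readouts did not move together. CTGF and CYR61 encode secreted matricellular proteins of the CCN family, and both were among the most abundant mRNAs of these cells, ranking 67 and 113 of all genes in controls. CTGF (chromosome 9, 70873216 to 70876451) had FPKM of 1057, 1060 and 1136 in controls and 1665, 1613 and 1559 after butyrate. Each treated culture exceeded each control by a wide margin. The mean rose 1.49-fold, from 1084 ± 44.6 to 1612 ± 52.9 (log2 fold change 0.57, SE 0.04, limma BH-adjusted p = 5.8e-06).

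CYR61 (chromosome 3, 58678777 to 58681686) had FPKM of 879, 907 and 860 in controls and 728, 715 and 775 after butyrate. The treated values were all lower, by a small distance. Its mean fell 1.19-fold, from 882 ± 23.7 to 739.6 ± 31.6 (log2 fold change -0.25, SE 0.04, limma BH-adjusted p = 0.00078). This direction depends on scaling: after quantile normalization the log2 fold change was 0.00 with an adjusted p of 0.96, and after rescaling to TPM it was -0.13 with the call kept.

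A ratio of both genes within a culture does not depend on a scale factor for the culture. CTGF to CYR61 was 1.20, 1.17 and 1.32 in controls and 2.29, 2.26 and 2.01 after butyrate, so CTGF made up 55.1% ± 1.58 and 68.5% ± 1.53 of their sum. Among the other CCN genes, NOV (CCN3) rose from 325 ± 3.07 to 634 ± 26.8 (log2 fold change 0.96, limma BH-adjusted p = 3.1e-07). WISP2 (CCN5), which encodes a CCN protein without the C-terminal domain, fell 2.44-fold, from 160.4 ± 6.45 to 65.9 ± 4.69 (-1.29, limma BH-adjusted p = 6.5e-07). WISP1 was at 1.43 and 1.86 without a call, and WISP3 was listed at 0 in all cultures. The whole CCN family summed to 2453 ± 36.0 FPKM in controls and 3054 ± 13.2 after butyrate, in which the share of CYR61 went from 36.0% to 24.2%, that of NOV from 13.2% to 20.8% and that of WISP2 from 6.54% to 2.16%.

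ANKRD1 (chromosome 26, 12571209 to 12580580) encodes an ankyrin repeat protein best known from the sarcomere and from nuclear regulation in stressed heart muscle. Its FPKM was 573, 597 and 613 in controls and 776, 871 and 944 after butyrate. The treated cultures were all higher and spread more widely than the controls. The mean rose from 594 ± 20.3 to 864 ± 83.9, or 1.45-fold (log2 fold change 0.54, SE 0.07, limma BH-adjusted p = 0.00016), and under the 3 other scalings the log2 fold change was 0.50 to 0.78. Related genes were far lower: ANKRD2 was at 0.730 and 0.907 without a call, and ANKRD23 at 1.04 and 2.40 (1.28, limma BH-adjusted p = 0.0232), a call lost in 6 of 15 alternatives, the removal of each butyrate culture among them. ANKRD1 thus supplied 99.7% of the sum of these 3 genes in controls and 99.6% after butyrate.

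**Figure D3:**
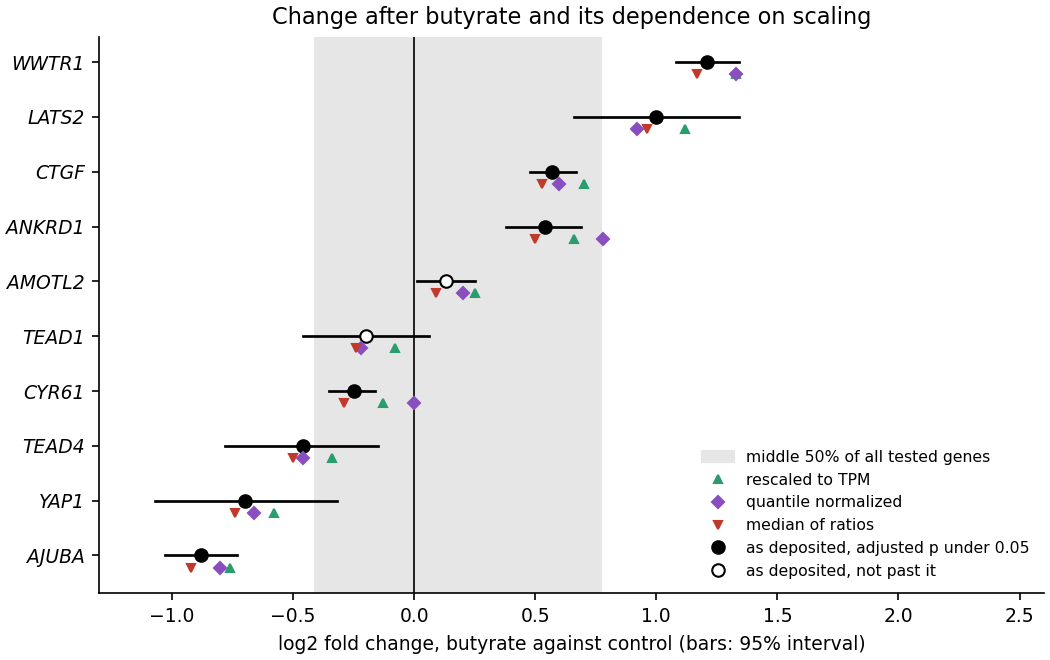
Log2 fold change of each of the 10 genes, butyrate against control, with its 95% interval (filled where the BH-adjusted p is under 0.05), and the value under 3 other scalings, over a grey band that spans the middle 50% of all tested genes (-0.41 to 0.77). With FPKM as deposited, WWTR1 and LATS2 lie above the band and TEAD4, YAP1 and AJUBA below it. After rescaling to TPM, TEAD4 goes from -0.46 to -0.34 and is without a call. The band holds for FPKM as deposited only, since the median over all tested genes goes from 0.10 to 0.23 as TPM. After quantile normalization, CYR61 goes from -0.25 to 0.00 and ANKRD1 from 0.54 to 0.78.

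The feedback genes differed as well. LATS2 (chromosome 12, 35919297 to 35943785) encodes the kinase that inactivates YAP1 and TAZ, and it was the lowest of the 10 genes in controls. Its FPKM was 4.61, 4.69 and 5.42 in controls and 11.7, 8.18 and 10.03 after butyrate. All treated values were higher, and butyrate culture 2 was the lowest of them. The mean rose 2.03-fold, from 4.91 ± 0.447 to 9.98 ± 1.77 (log2 fold change 1.00, SE 0.15, limma BH-adjusted p = 0.00045).

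The paralog LATS1 is listed at more than one position. The position with the highest mean, which the rule for repeated names takes, spans only 371 bases, had an FPKM of 3.06 in controls and 5.62 after butyrate, and was called narrowly (1.04, limma BH-adjusted p = 0.0492), a call lost in 10 of 15 alternatives, the removal of any culture but control culture 1 among them. The longer LATS1 entry was at 3.97 ± 0.0884 and 3.89 ± 0.214 (-0.03, limma BH-adjusted p = 0.861). With the longer entry, LATS2 made up 53.3%, 54.8% and 57.5% of the LATS sum in controls and 73.9%, 68.7% and 72.5% after butyrate. With the short entry the share of LATS2 was 63.9% ± 15.3 and 63.7% ± 5.63, so a statement on the LATS balance rests on which entry is used.

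AMOTL2 (chromosome 1, 136054307 to 136072241) encodes an angiomotin-like junction protein that binds YAP1 and keeps it out of the nucleus. Its FPKM was 49.8, 47.6 and 48.7 in controls and 54.6, 51.2 and 54.1 after butyrate. The treated values were all higher, as for 36.1% of all tested genes, but the log2 fold change of 0.13 (95% interval 0.01 to 0.25) was not called (limma BH-adjusted p = 0.0643). AMOTL2 passed the threshold after rescaling to TPM (0.25), after quantile normalization (0.20), with no filter on low values and without butyrate culture 2 (0.16). Of the other motins, AMOT rose from 1.34 to 2.22 (0.68, limma BH-adjusted p = 0.0148), though not after quantile normalization (0.30) or without butyrate culture 1 (0.57), and AMOTL1 was at 5.34 and 6.62 without a call. AMOTL2 held 87.9% of the summed motin FPKM in controls and 85.8% after butyrate.

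AJUBA (chromosome 10, 21699229 to 21708079) encodes a LIM domain protein that binds LATS kinases at adherens junctions and limits their action on YAP1. Its FPKM was 81.7, 71.4 and 72.0 in controls and 41.7, 39.0 and 41.2 after butyrate, and the groups were well apart. The mean fell 1.85-fold, from 75.02 ± 5.76 to 40.6 ± 1.40 (log2 fold change -0.88, SE 0.07, limma BH-adjusted p = 7.8e-06). In the same family, WTIP fell from 21.0 to 11.5 (-0.86, limma BH-adjusted p = 0.00049). LIMD1 was called in the opposite direction, at 14.5 and 19.8 (0.42, limma BH-adjusted p = 0.0339), with overlapping values and a call lost in 7 of 15 alternatives, the removal of any culture but butyrate culture 3 among them. AJUBA went from 67.9% ± 1.89 to 56.6% ± 3.37 of the summed FPKM of the 3 genes, which was 110.5 ± 7.58 in controls and 71.9 ± 4.91 after butyrate.

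Ordered by level, CTGF, CYR61 and ANKRD1 stood highest in controls, followed by AJUBA, AMOTL2, WWTR1, YAP1, TEAD4, TEAD1 and LATS2, and the ranges of neighbours in that order did not overlap. After butyrate, ANKRD1 stood above CYR61, and WWTR1 above AMOTL2 and AJUBA. TEAD4 and TEAD1, and TEAD1 and LATS2, overlapped there. The rank of WWTR1 among all genes went from 2561 to 1151 and that of ANKRD1 from 205 to 91, while YAP1 went from 3428 to 4686 and AJUBA from 1586 to 2557.

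Of 24 upstream Hippo genes listed, 23 were tested, and 6 were called higher, 2 lower and 15 not, where 32.5% of all tested genes were called higher and 25.9% lower. Their median log2 fold change was 0.11, beside 0.10 over all genes. Besides LATS2 and LATS1, the genes called higher were STK4, MOB1A, MAP4K2 and RASSF1. LATS1 is counted here at its short entry, and its longer entry was not called (-0.03). MAP4K2, a kinase that can act on LATS beside MST1 and MST2, rose from 4.99 to 8.99 FPKM (0.83, limma BH-adjusted p = 0.00064). RASSF1, a scaffold that binds the MST kinases, rose from 31.2 to 47.9 (0.62, limma BH-adjusted p = 0.00046). STK4 (0.47) was called at a low level, and its call was lost in 5 of 15 alternatives, among them without control culture 2 or 3 or butyrate culture 1 or 2. MOB1A, the cofactor of the LATS kinases, had a log2 fold change of 0.28.

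The upstream genes called lower were MAP4K4 and NF2. MAP4K4 fell from 21.7 to 13.5 (-0.69, limma BH-adjusted p = 0.00549). NF2, which encodes the membrane scaffold Merlin, fell from 20.01 to 15.8 (-0.34, limma BH-adjusted p = 0.0135), a call lost after rescaling to TPM (-0.22) and without butyrate culture 1 (-0.29). The protocadherin genes FAT4 (-0.70, 0.364 and 0.187 FPKM) and FAT1 (-0.24) were not called. The core genes STK3 (0.23) and SAV1 (0.14) were not called. WWC1, the KIBRA gene, was at 50.7 and 49.6 FPKM, and FRMD6 had a log2 fold change of 0.01.

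The STRIPAK complex carries a phosphatase that removes the activating phosphate from MST kinases. Of 8 of its genes, 2 were called higher, 2 lower and 4 not, with a median of 0.19 (all genes: 32.5% higher, 25.9% lower, median 0.10). STRN3, a striatin subunit, rose (0.63), as did CTTNBP2NL (0.48). PPP2R1A, the scaffold subunit of the phosphatase, fell from 187 to 126 FPKM (-0.57, limma BH-adjusted p = 9.2e-06), and SLMAP, the adaptor that recognises phosphorylated MST, fell by 0.64 on the log2 scale. SIKE1 (0.27), MOB4 (0.23) and STRN4 (-0.22) were not called. The vestigial-like proteins compete with YAP1 and TAZ for TEAD. VGLL1 and VGLL2 were listed at 0, VGLL3 was at 20.6 and 21.2 and VGLL4 at 22.4 and 27.0, and neither was called (limma BH-adjusted p = 0.923 and 0.080). Over the 12 tested paralogs of the 10 genes, 5 were called higher and 3 lower, beside 32.5% and 25.9% of all tested genes. The 5 include LATS1 at its short entry, while its longer entry was not called. The higher count fell to 1 without butyrate culture 1, to 2 without butyrate culture 2 and to 3 without control culture 3 or butyrate culture 3.

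**Figure D4:**
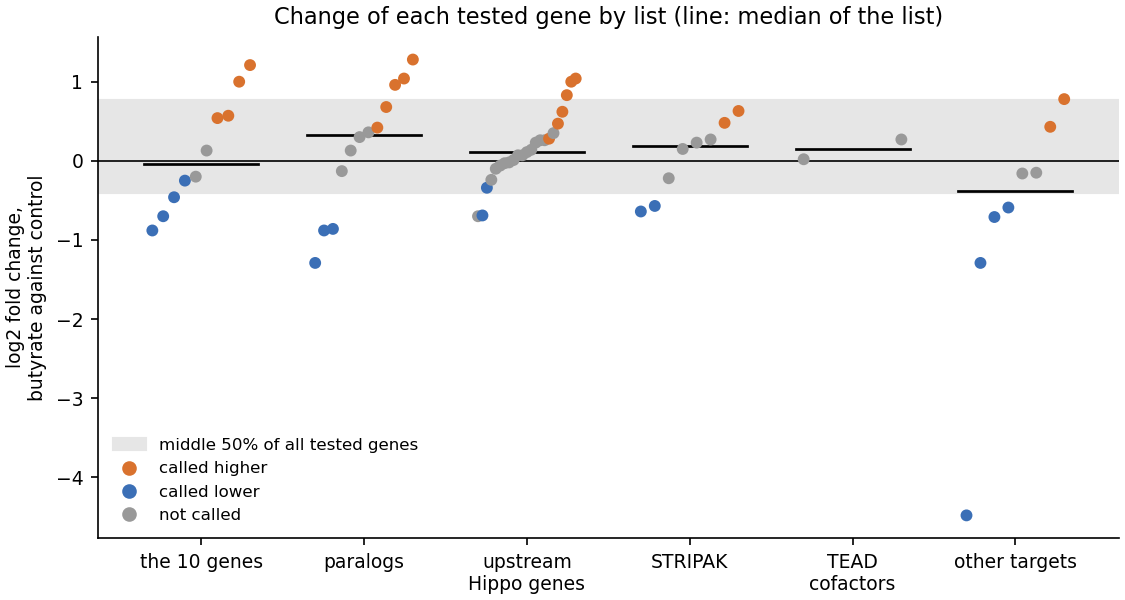
Log2 fold change of each tested gene, butyrate against control, by list (the 10 genes, their paralogs, upstream Hippo genes, STRIPAK genes, TEAD cofactors and other targets), in orange where called higher, blue where called lower and grey where not called, with the median of each list as a black line and the middle 50% of all tested genes as a grey band. Each list but the TEAD cofactors holds called genes of both directions, and the lowest point, among the other targets, is BIRC5 at -4.48.

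A list of 22 genes in wide use as a YAP and TAZ target signature in human tumours held genes of both directions. Of its 22 genes, 9 were called higher, 5 lower and 8 not, with log2 fold changes from -1.10 to 2.28 and a median of 0.13. Over all tested genes, 32.5% were called higher and 25.9% lower, 58.4% in all, and the median was 0.10, so the counts of the list are near those of all genes. Without CTGF, CYR61, ANKRD1, AMOTL2 and LATS2, the counts were 6, 4 and 7 of 17 genes, with a median of 0.06. IGFBP3, which encodes a secreted binding protein of insulin-like growth factors, was the largest rise and the one gene of the list past the stricter threshold. It was at 16.4, 19.8 and 20.1 FPKM in controls and at 85.4, 111.4 and 80.4 after butyrate, 4.92-fold higher (log2 fold change 2.28, limma BH-adjusted p = 1.5e-06).

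NT5E, the ecto-enzyme CD73 that forms adenosine, rose from 5.35 ± 0.786 to 16.7 ± 0.651 (1.63, limma BH-adjusted p = 7.4e-06). GADD45A, a stress-induced growth arrest gene, rose from 102.6 to 179 (0.81), and TGFB2 rose from 88.2 to 130.0 (0.55). NUAK2 had a log2 fold change of 0.43, called except without control culture 1, butyrate culture 2 or butyrate culture 3. FOXF2 was called higher (1.52) from 0.0386 to 0.273 FPKM, levels near the filter on low values, and the call was lost without control culture 1 or 3.

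AXL, a receptor tyrosine kinase, was the largest fall of the signature. It was at 67.0, 67.1 and 66.1 FPKM in controls and at 31.0, 29.0 and 33.0 after butyrate, 2.15-fold lower (-1.10, limma BH-adjusted p = 1.4e-06). CRIM1 fell from 51.6 to 29.3 (-0.82) and MYOF from 21.9 to 13.9 (-0.66). F3, the tissue factor gene, was called at a log2 fold change of -0.16. It was not called after rescaling to TPM (-0.04), after quantile normalization (-0.03) or without the mean-variance trend. ARHGEF17, at 0.643 and 0.451 FPKM, was not called (-0.44). Another entry of this gene, at 0.694 and 0.344 FPKM, was not called either (-0.84). CCDC80 was at 283 and 284 FPKM, a log2 fold change of 0.00.

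**Figure D5:**
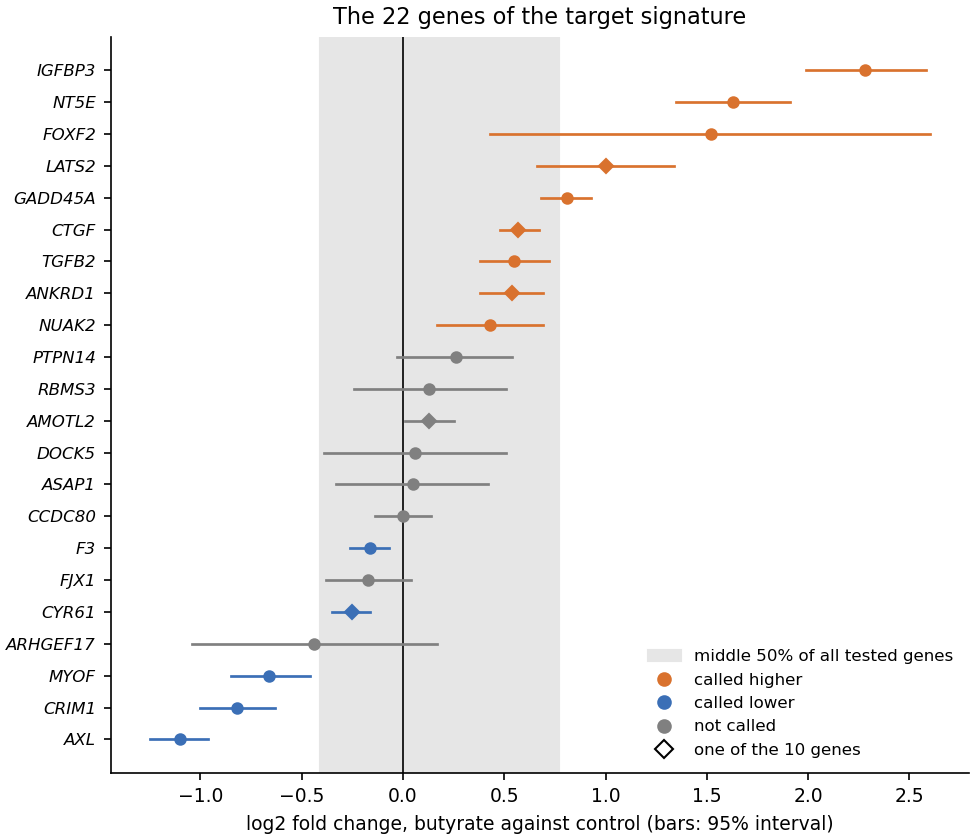
Log2 fold change of the 22 signature genes, butyrate against control, with 95% intervals, in orange where called higher, blue where called lower and grey where not called, with diamonds for those among the 10 genes and a grey band for the middle 50% of all tested genes. IGFBP3 (2.28) and NT5E (1.63) are the largest rises and AXL (-1.10) and CRIM1 (-0.82) the largest falls, and CYR61, blue here, goes to 0.00 after quantile normalization.

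Of 8 other genes described as YAP and TAZ targets, 2 were called higher, 4 lower and 2 not, with a median log2 fold change of -0.37, beside 32.5% higher, 25.9% lower and a median of 0.10 over all tested genes. BIRC5, which encodes the mitotic protein survivin, fell 22.9-fold, from 73.5 to 3.21 FPKM (-4.48, limma BH-adjusted p = 1.9e-08), beside the fall of all 6 proliferation markers given above. CCND1, the cyclin D1 gene, fell from 775 ± 5.81 to 316 ± 8.48 (-1.29, limma BH-adjusted p = 4.5e-08). MYC fell from 95.3 to 58.8 (-0.71). Of the secreted proteins, the thrombospondin gene THBS1 fell from 380.4 to 254 (-0.59). The activin subunit INHBA rose from 209.7 to 283 (0.43), and AREG, a ligand of the EGF receptor, rose from 2.14 to 3.74 (0.78).

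Across the 6 cultures, the named genes whose log2(FPKM + 0.1) was most like that of CTGF were CD44 (Pearson r = 0.9997), SLIT3 and EPOR. For CYR61 they were POLR1A (0.9986), MTMR1 and COQ5, and for ANKRD1 they were MED7 (0.9989), NUMB and MKRN1. These values are descriptions over 6 cultures that differ mainly by treatment. Of 13241 named genes tested, 2150 had an r above 0.95 with CTGF, 1055 with CYR61 and 908 with ANKRD1.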

How the data were processed

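RNA-seq was made from 3 control and 3 butyrate cultures. The authors trimmed reads below a quality of 20 with Trim Galore 0.4.1, aligned them with STAR, kept uniquely mapped reads and deposited gene-level FPKM from Cufflinks, each with confidence bounds. The submitters' processing notes name the build UMD3.1. Starts in the files count from 0, so 1 was added. Each sequence was placed on the chromosome that holds most of its genes by RefSeq annotation of ARS-UCD2.0, used for names and placement only. The gene listed as TAZ on chromosome X was taken as tafazzin and not used.

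FPKM are not counts, and the depth behind a value is unknown, apart from the confidence bounds. log2(FPKM + 0.1) was fitted in limma 3.58.1 (R 4.3.3), the variance following a trend with the mean, over 15813 genes whose FPKM averaged 0.1 or more, and p-values were BH-adjusted over all of them. In 2 genes an estimate had failed, and they were left out. The scripts were tested on simulated data. A name listed more than once was counted once, at its highest mean. The 10 genes were described in full. Of the other lists, every gene was counted, and named were the paralogs, the called genes and, in each list, the 4 largest changes in each direction. A few genes without a call (STK3, SAV1, WWC1, FRMD6 and CCDC80) were chosen after their values were seen. The genes most like CTGF, CYR61 and ANKRD1 were the 3 named genes with the highest Pearson r. The genes and lists were chosen with earlier results of these data known, and the signature, target and marker lists were written from general knowledge; 2 genes of these and the STRIPAK list are not reported here and not counted. Alternatives were 2 other pseudocounts, 2 other filters, 3 other scalings, a fit without the trend, a replicate block, and the removal of each single culture.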

Additional observations from a re-analysis of the deposited data

How the results depend on the processing

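FPKM without counts and 3 cultures per group from 1 calf limit these results, above all for genes at low levels such as LATS1, ANKRD23 and FOXF2. The changes of YAP1, WWTR1, CTGF, ANKRD1, LATS2 and AJUBA kept their direction and their call under every alternative run, and TEAD1 stayed without a call. The TEAD4 call was lost after rescaling to TPM (-0.34), without the trend (-0.46) and without butyrate culture 1 or 2 (range over the cultures left out, -0.55 to -0.31). CYR61 turned to 0.00 after quantile normalization. AMOTL2 gained a call with no filter (0.13), as TPM (0.25), after quantile normalization (0.20) and without butyrate culture 2 (range 0.11 to 0.16). Leaving out one culture gave 4 to 5 of the 10 genes called higher and 3 to 4 called lower. The paralogs called higher were 5, against 2 with no filter, 2 after quantile normalization and 3 without the trend, and 1 to 4 with a culture left out. The upstream genes called higher were 6, against 9 as TPM, 4 after quantile normalization and 4 to 6 with a culture left out. The upstream genes called lower were 2, against 1 as TPM, 3 after quantile normalization, 3 without the trend and 1 to 2 with a culture left out. The STRIPAK genes called higher were 2, against 4 as TPM. The TEAD cofactors called higher were 0 by limma, also at an unadjusted p under 0.05, against 1 as TPM, 1 after quantile normalization and 0 to 1 with a culture left out (1 without control culture 1). The share of LATS2 in the LATS sum differed by -0.2 percentage points with the short LATS1 entry (-8.5 to 6.6 with a culture left out) and by 16.5 with the longer entry, an alternative chosen after seeing the data. For the other listed genes, 41 values lost a call, 22 gained one and 938 did neither. With the replicate number as a block, all 8 calls among the 10 genes held, and 8971 genes were called against 9235 without the block. Samples with the same number did not deviate together (correlations 0.023, -0.004 and 0.002), so no pairing by number was seen in the values. These correlations cannot show whether cultures of the same number were handled together. The cause of these shifts was not tested.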
